A study of Mus musculus with 24 samples.

Results

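Zap70, Lck, Cd5, Cd3e, Cd3g, Thy1, Cd3d and Lat are 8 genes whose products carry or adjust the signal of the T cell antigen receptor, and their RNA was examined in lymphomas of B cells. The genes were taken by symbol from the deposited count table. Of the 8, 6 had a row among the 11140 genes of the table, and all 6 passed the filter on low counts that left 11020 genes for testing. Cd3d and Lat were not analysed here. Splenic B lymphoma cells of C57BL/6 mice had been purified, and their RNA made into TruSeq libraries. The T cell deficient group held 11 lymphomas of genotype Bcl6Tg/+CD3Epsilon-/-, mice with a Bcl6 transgene and without the CD3 epsilon subunit, which T cells need to develop. The T cell sufficient group held 12 lymphomas of genotype Bcl6Tg/+, so both groups carried the transgene. The sources used here do not give the cells in which the transgene is active, the ages of the mice or the way the cells were purified. Sequencing took 2 runs, batches in the labels. Run 1 took 5 T cell deficient and 7 T cell sufficient libraries, and run 2 took 6 T cell deficient and 5 T cell sufficient ones.

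In T cells the receptor has no kinase of its own. The CD3 chains carry its tyrosine motifs, the kinase Lck phosphorylates them, and the kinase Zap70 binds the phosphorylated motifs and passes the signal to the adaptor Lat. B cells use the same layout with other parts, Cd79a and Cd79b in place of the CD3 chains and Syk, the closest relative of Zap70, in place of Zap70. Cd5 is a receptor that dampens antigen receptor signals in T cells and in the B-1 subset of mouse B cells, and Thy1 is a surface protein of mouse T cells. ZAP70 and CD5 are also known from human chronic lymphocytic leukaemia, a B cell tumour in which both proteins can be present.

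Depth lay between 7.58 M and 30.6 M counts (M, mega), so that 3 counts, taken as the limit of detection, were worth 0.102 to 0.406 CPM (counts per mega-count of the library, here scaled by TMM). The libraries held B cell RNA at high levels: Cd79a averaged 855 CPM ± 181 (SD, n = 11) in T cell deficient and 1280 CPM ± 369 (SD, n = 12) in T cell sufficient libraries, and Ms4a1, which encodes CD20, averaged 2066 CPM ± 634 in T cell deficient and 2430 CPM ± 884 in T cell sufficient libraries. The table has a row for all 15 B cell identity markers listed. Of the T cell sufficient libraries, 3 (numbers 9, 10 and 11, of run 2) held over 100 CPM of Xist together with over 20 CPM of the Y-linked Ddx3y, and the fits, list counts and correlations among the 6 genes are given with and without them. Exact tests within run 2 and correlations with marker lists include them. Ddx3y was over 20 CPM in 8 of 11 T cell deficient and 6 of 12 T cell sufficient libraries. Xist was over 100 CPM in 3 T cell deficient and 6 T cell sufficient libraries, and 3 T cell sufficient libraries passed neither limit. Nothing in the labels says that the libraries of a group came from separate mice, so p-values measure the spread between these libraries. Cd3e, the gene named in the genotype, was counted in 11 of 11 T cell deficient libraries. The sources used here do not say which part of the gene is missing, and the counts are per gene, so they do not check the genotype, and the groups are called as labelled.

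Zap70 was the T cell signalling gene with the widest range. It lies on chromosome 1 (chr1:36761798-36782818, plus strand, GRCm38), with the gene model Gm18828 overlapping it on the other strand. Its RNA ran from 7.67 CPM through a median of 93.0 to 754 CPM in the 11 T cell deficient lymphomas, against 0.0688 through a median of 0.951 to 129 CPM in the 12 T cell sufficient lymphomas. The ranges overlapped, but 11 of 11 T cell deficient libraries lay above the median of the T cell sufficient libraries, 5 lay above every T cell sufficient library, and 8 of the 12 T cell sufficient libraries lay below every T cell deficient one. The mean was 174 CPM ± 219 (SD, n = 11) for T cell deficient and 16.3 CPM ± 36.3 (SD, n = 12) for T cell sufficient lymphomas. Of all genes tested, 0.0907% had every T cell deficient library above, and 0.0726% below, every T cell sufficient one, and none of the 6 genes did. T cell deficient library 6 alone held 35.7% of the Zap70 CPM summed over the 23 libraries, and the 3 highest libraries held 61.6%. In bulk RNA, fewer cells of a type and less RNA per cell cannot be told apart.

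Zap70 was higher in T cell deficient lymphomas, with a log2 fold change of 3.59 ± 1.23 SE (edgeR quasi-likelihood test with run as a term, adjusted p = 0.0400). It was the 1 gene of the 6 that passed, against 22.2% of all genes tested, 10.6% in the higher and 11.7% in the lower direction. The share among the 6 was no larger than the 22.2% of both directions. Within the higher direction, 1 call among 6 genes is too few to compare. Within run 2 the log2 fold change was 5.44 ± 1.27 SE (edgeR adjusted p = 0.0223), a run in which 12.3% of genes passed, 5.69% higher and 6.61% lower. Within run 1 it was 1.90 ± 1.44 SE and did not pass (edgeR adjusted p = 0.531), a run in which 0 genes passed and 1832 had an unadjusted p under 0.05. The difference between the runs was 3.54 ± 1.98 SE (edgeR interaction, adjusted p = 0.767), and 0 genes passed that test, with 723 at an unadjusted p under 0.05. An exact permutation test of log2 CPM within a run, two-sided, gave p = 0.00216 in run 2 (adjusted over 12 tests 0.0260), the smallest that the 462 splits can give, and p = 0.0821 in run 1 (adjusted 0.164). Without T cell sufficient libraries 9 to 11 the log2 fold change was 2.94 and did not pass (edgeR adjusted p = 0.174), and within run 2, with 2 T cell sufficient libraries then left, it was 8.20 ± 1.84 SE and passed (edgeR adjusted p = 0.0301). The call was also lost in 11 of the 23 fits that left out 1 library (edgeR adjusted p from 0.0506 to 0.0843), those without T cell deficient 4, 5, 8 or 11 or T cell sufficient 3, 7, 8, 9, 10, 11 or 12. Without T cell sufficient library 5 the value was 4.63 (edgeR adjusted p = 0.00276). The authors' deposited table lists a log2 fold change of 5.09 for Zap70, with an adjusted p-value of 0.0217.

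**Figure D1:**
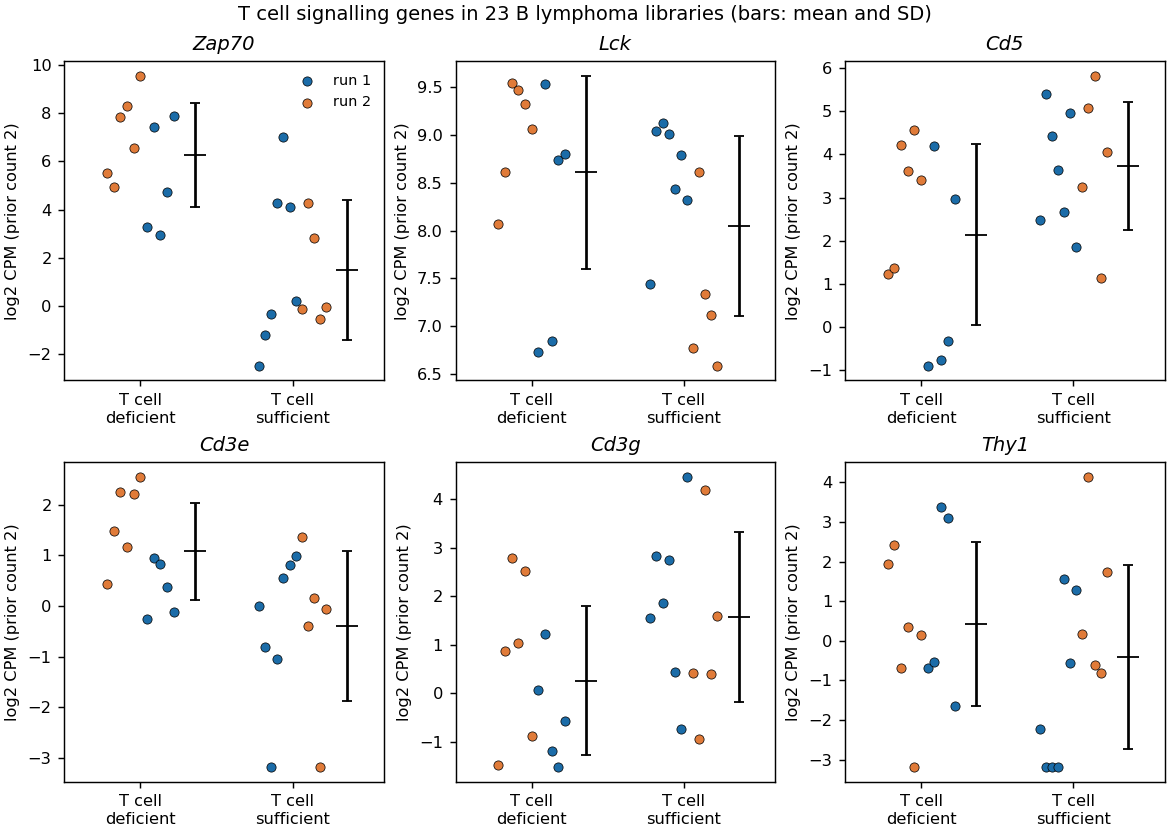
Each panel shows 1 gene, with its log2 CPM (prior count 2) on the vertical axis and a point for each of the 11 T cell deficient and 12 T cell sufficient lymphomas, coloured by run, beside the mean and SD of the group. Zap70 shows the widest spread, and each of its T cell deficient points lies above the middle of the T cell sufficient points. The groups overlap in each of the 6 panels.

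Per kilobase of exon, which allows genes to be compared, Zap70 RNA amounted to 4.41% to 207% of Syk RNA in T cell deficient lymphomas, with a median of 53.5%. In T cell sufficient lymphomas the share ran from 0.0220% to 39.3%, with a median of 0.171%. Zap70 exceeded Syk per length in 2 libraries, T cell deficient 4 and T cell deficient 6, at 163% and 207%. Syk itself averaged 732 CPM ± 235 (SD, n = 11) in T cell deficient and 1376 CPM ± 469 (SD, n = 12) in T cell sufficient libraries, a log2 fold change of -0.94 ± 0.19 SE (edgeR adjusted p = 0.00175). Lck exceeded Zap70 per length in every library but T cell deficient 6.

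**Figure D2:**
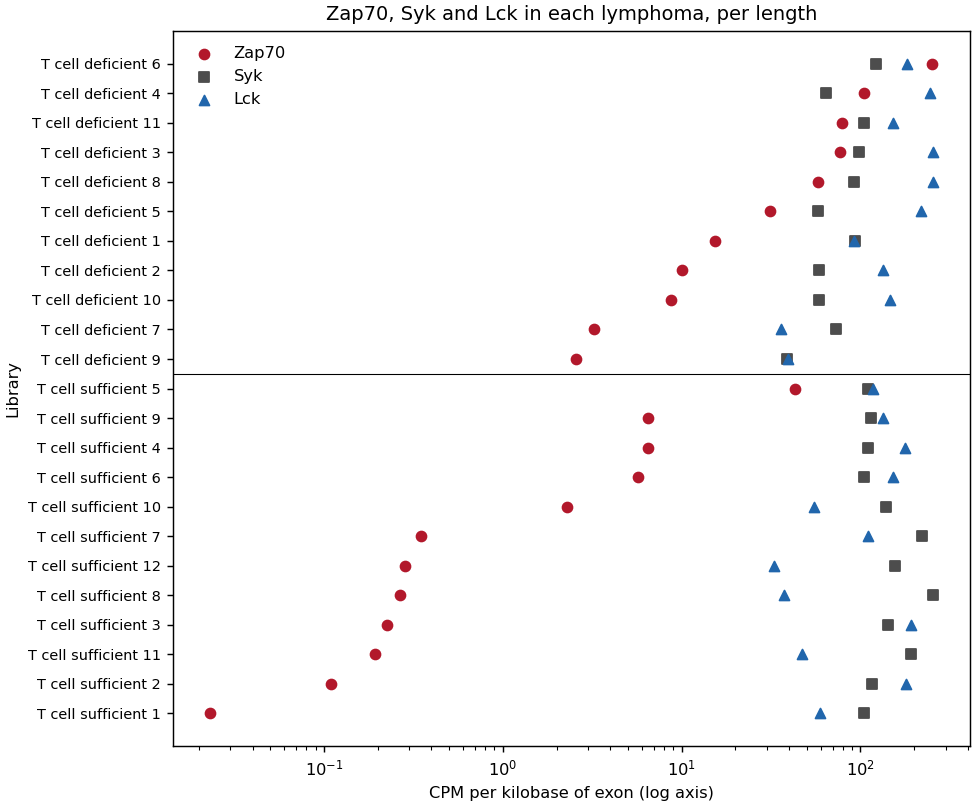
Zap70, Syk and Lck are plotted for each of the 23 lymphomas in CPM per kilobase of exon on a log axis, with T cell deficient libraries above the line and T cell sufficient libraries below it, each ordered by Zap70. Zap70 spreads over 4 orders of magnitude while Syk and Lck stay within about 1, and Zap70 lies to the right of Syk in T cell deficient libraries 4 and 6.

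Lck, the kinase that acts first on the receptor, lies on chromosome 4 (chr4:129548344-129573641, minus strand, GRCm38). It was the most abundant of the 6 genes per length, at a mean of 159 CPM per kilobase in T cell deficient and 108 CPM per kilobase in T cell sufficient lymphomas. Its RNA ran from 106 through a median of 445 to 749 CPM in T cell deficient libraries, against 95.9 through a median of 333 to 558 CPM in T cell sufficient libraries. The ranges overlapped over most of their length, with 4 T cell deficient libraries above every T cell sufficient one. The log2 fold change of 0.70 ± 0.39 SE did not pass (edgeR adjusted p = 0.204). Within run 2 it was 1.62 ± 0.40 SE and passed (edgeR adjusted p = 0.0285), whereas within run 1 it was -0.17 ± 0.47 SE (edgeR adjusted p = 0.886). The difference between the runs, 1.78 ± 0.65 SE, did not pass over all genes (edgeR interaction, p = 0.0117, adjusted p = 0.757). The 4 lowest of the 5 T cell sufficient libraries of run 2 held 95.9, 109, 139 and 161 CPM, and the other one, number 9, held 391 CPM. Without libraries 9 to 11 the log2 fold change was 0.54 (edgeR adjusted p = 0.490), and 2.42 ± 0.43 SE within run 2, where it passed (edgeR adjusted p = 0.0124).

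Cd5 lies on chromosome 19 (chr19:10717116-10739002, minus strand, GRCm38). Its RNA ran from 0.424 through a median of 7.74 to 23.6 CPM in T cell deficient libraries, against 2.09 through a median of 14.4 to 56.7 CPM in T cell sufficient libraries. The groups overlapped, with 3 T cell deficient libraries below every T cell sufficient one and 4 T cell sufficient libraries above every T cell deficient one. The log2 fold change was -1.36 ± 0.67 SE (edgeR adjusted p = 0.148), -1.66 within run 1 and -1.04 within run 2, and none of the 3 values passed (edgeR adjusted p = 0.435 and 0.396 within the runs). With T cell sufficient libraries 9 to 11 left out it was -1.21 (edgeR adjusted p = 0.330), and -0.17 within run 2 (edgeR adjusted p = 0.927). The 3 T cell deficient libraries under 1 CPM of Cd5, numbers 7, 9 and 10 of run 1, still held 106, 115 and 428 CPM of Lck.

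The start regions of Zap70, Lck and Cd5 are shown because the 2 pairs of genes whose correlation passed, described further on, are Lck with Cd5 and Zap70 with Lck. Each is the 250 bases before an annotated start site (RefSeq, GRCm38.p6), 5′ to 3′ on the strand of the gene. Of 3 Zap70 start sites in the RefSeq table the first along the gene is shown. They are chr1:36761548-36761797 (plus) for Zap70, chr4:129573642-129573891 (minus) for the distal Lck start, chr4:129558373-129558622 (minus) for the proximal Lck start 15269 bases away, and chr19:10738975-10739224 (minus) for Cd5. Capitals mark AGGAAG, an ETS-type core, CAGGTG, an E-box, and TGTGGT, a RUNX-type core, each searched on both strands, so that a match on the other strand is printed as the reverse complement of these letters. The 3 motifs do not overlap in the windows shown.
Zap70: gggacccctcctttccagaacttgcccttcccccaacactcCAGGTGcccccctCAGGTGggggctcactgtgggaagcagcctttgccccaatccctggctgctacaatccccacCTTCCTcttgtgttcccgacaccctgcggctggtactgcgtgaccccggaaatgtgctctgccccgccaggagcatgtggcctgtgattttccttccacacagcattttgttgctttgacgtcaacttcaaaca
Lck distal: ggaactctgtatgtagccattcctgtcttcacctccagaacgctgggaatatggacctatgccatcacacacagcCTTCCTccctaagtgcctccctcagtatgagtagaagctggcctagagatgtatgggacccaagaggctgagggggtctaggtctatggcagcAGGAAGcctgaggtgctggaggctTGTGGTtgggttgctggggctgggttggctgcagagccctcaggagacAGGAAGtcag
Lck proximal: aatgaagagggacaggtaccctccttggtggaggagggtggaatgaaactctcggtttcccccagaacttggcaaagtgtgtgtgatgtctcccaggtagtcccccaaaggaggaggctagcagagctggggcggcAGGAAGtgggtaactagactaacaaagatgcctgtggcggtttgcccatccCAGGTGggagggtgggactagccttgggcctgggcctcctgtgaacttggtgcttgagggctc
Cd5: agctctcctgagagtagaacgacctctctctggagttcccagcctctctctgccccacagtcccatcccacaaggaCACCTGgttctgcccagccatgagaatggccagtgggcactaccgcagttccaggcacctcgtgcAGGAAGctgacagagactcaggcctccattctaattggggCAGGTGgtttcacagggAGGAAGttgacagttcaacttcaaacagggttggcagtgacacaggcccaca
AGGAAG occurred 1 time in the Zap70 window, 3 times in the distal and 1 time in the proximal Lck window and 2 times in the Cd5 window, and 29.5% of all 32851 start regions of this length in the table hold it. CAGGTG occurred 2 times in the Zap70 and Cd5 windows, 1 time in the proximal and 0 times in the distal Lck window, and 17.2% of start regions hold it. TGTGGT occurred 1 time, in the distal Lck window, and 14.0% of start regions hold it. The windows of the other Zap70 start sites held AGGAAG 2 and 0 times, CAGGTG 0 and 1 time, and TGTGGT 1 and 0 times, in their order along the gene. A match describes the letters and not the binding of a factor.

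The CD3 chains were scarce. Cd3e (chr9:44998740-45009627, minus strand) and Cd3g (chr9:44969572-44980431, minus strand) lie 18308 bases apart on GRCm38, with Cd3d between them, and Cd3e overlaps the gene model Gm48720 on its own strand and Gm48719 on the other. Cd3e, the epsilon chain, ran from 0.721 through a median of 1.82 to 5.77 CPM in T cell deficient libraries, against 0 through a median of 0.874 to 2.46 CPM in T cell sufficient libraries, 2 of which had no count. The groups overlapped, and 4 T cell deficient libraries, all of run 2, lay above every T cell sufficient one. The log2 fold change was 1.07 ± 0.57 SE (edgeR adjusted p = 0.179), 0.37 within run 1 and 1.81 within run 2, and none passed (edgeR adjusted p = 0.819 and 0.164 within the runs). In run 2 an exact permutation test, two-sided, gave p = 0.0130 (adjusted over 12 tests 0.0519). Without T cell sufficient libraries 9 to 11 the log2 fold change was 0.60 (edgeR adjusted p = 0.461), and 1.08 within run 2 (edgeR adjusted p = 0.393).

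Cd3g, the gamma chain, ran from 0.239 through a median of 0.933 to 6.77 CPM in T cell deficient libraries, against 0.409 through a median of 2.87 to 22.04 CPM in T cell sufficient libraries. The groups overlapped, with 3 T cell sufficient libraries above every T cell deficient one and 3 T cell deficient libraries below every T cell sufficient one. T cell sufficient libraries 7 and 10 stood apart at 22.04 and 18.2 CPM. The same 2 libraries were the highest of the T cell sufficient group for Cd8b1, a chain of a T cell coreceptor. They held 45.2 and 38.6 CPM of it against a group median of 1.67 CPM. Their T cell marker sums (the list described further on) were 680 and 503 CPM against a group median of 423 CPM. Cd2 held 329 and 220 CPM of these sums. The T cell markers Cd28 (5.55 and 1.47 CPM) and Tcf7 (1.72 and 1.70 CPM) lay above their group medians of 1.34 and 1.18 CPM. Cd4, at 0.525 and 1.08 CPM, lay below its median of 1.20 CPM. The highest sum of the group, 936 CPM in T cell sufficient library 4, came with 6.60 CPM of Cd3g and 0.0942 CPM of Cd8b1. The part of T cell RNA in these Cd3g values was not tested. The log2 fold change was -1.84 ± 0.80 SE (edgeR adjusted p = 0.0993), -2.89 within run 1 and -0.79 within run 2 (edgeR adjusted p = 0.177 and 0.638). It was -2.03 without T cell sufficient libraries 9 to 11 (edgeR adjusted p = 0.169), and 0.42 within run 2 (edgeR adjusted p = 0.861). DESeq2 gave -1.85 and called it (adjusted p = 0.0262), as it called 28.1% of the genes it tested, 13.7% higher and 14.4% lower. Per kilobase of exon, Cd3g amounted to 9.46% to 182% of Cd3e in the 11 T cell deficient libraries, with a median of 86.8%, and to 37.4% to 2266%, with a median of 411%, in the 10 T cell sufficient libraries with a Cd3e count. The ratio of the 2 chains thus varied more than 10-fold between libraries of each group. Among T cell deficient libraries this rests on library 6 (10 counts of Cd3g), and the next lowest ratio was 24.4%. Ratios of 2266%, 2184% and 1890% in T cell sufficient libraries 10, 4 and 2 rested on 13, 4 and 7 counts of Cd3e. The part of counting error in this range was not tested. Set against Cd79b, the B cell counterpart, Cd3e per length had a median of 0.0793% in T cell deficient and 0.0230% in T cell sufficient libraries. Cd79b itself averaged 993 CPM ± 279 (SD, n = 11) in T cell deficient and 1458 CPM ± 527 (SD, n = 12) in T cell sufficient libraries. This ratio therefore reflects both genes.

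Thy1 lies on chromosome 9 (chr9:44043384-44048579, plus strand, GRCm38), 950160 bases from Cd3e. It ran from 0 through a median of 1.01 to 10.3 CPM in T cell deficient libraries, against 0 through a median of 0.556 to 17.5 CPM in T cell sufficient libraries. No count was found in 1 T cell deficient and 3 T cell sufficient libraries, which allows up to 3 counts in each. The groups overlapped over nearly their whole range, and the highest library was T cell sufficient 9. The log2 fold change was 0.59 ± 1.05 SE (edgeR adjusted p = 0.715), 2.22 within run 1 and -1.23 within run 2 (edgeR adjusted p = 0.423 and 0.4996). The value without T cell sufficient libraries 9 to 11 was 1.34 (edgeR adjusted p = 0.392), and -0.14 within run 2 (edgeR adjusted p = 0.963). Between the runs themselves, with group as a term, 0 of the 6 genes passed in edgeR's test, against 36.3% of all genes.

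The 6 genes differed in how much they varied once the means of group and run were removed. The residual SD on the log2 scale was 2.59 for Zap70, 2.12 for Thy1, 1.73 for Cd5, 1.66 for Cd3g, 1.22 for Cd3e and 0.82 for Lck, where the median of all genes was 0.373. Zap70 stood at the 99.4th percentile of all genes tested and Lck at the 78.8th. The scarce genes include counting error in this spread, of which Lck, at 95.9 CPM or more in every library, holds little. The highest library was T cell deficient 6 for Zap70 and Cd3e, T cell deficient 3 for Lck, T cell sufficient 7 for Cd3g, T cell sufficient 10 for Cd5 and T cell sufficient 9 for Thy1.

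To see whether the genes varied together, log2 CPM with the means of group and run removed were correlated over the 23 libraries for all 15 pairs, with permutation within group and run. Pearson's r ran from -0.45 to 0.72 with a median of 0.13, and was positive for 10 pairs and negative for 5. After adjustment over the 15 pairs 2 passed, Lck with Cd5 and Zap70 with Lck, and 4 had an unadjusted p under 0.05. For Lck and Cd5, r was 0.72 (permutation p = 0.00273, adjusted 0.0401) and rho was 0.71 (permutation p = 0.00306, adjusted 0.0459), and r was 0.63 without the 2 libraries farthest from the median of Lck. It was 0.84 in T cell deficient and 0.54 in T cell sufficient libraries, 0.79 in run 1 and 0.62 in run 2. None of these smaller sets passed over the 15 pairs. Leaving out T cell deficient 1 or 2 or T cell sufficient 1 or 8 ended the call, at values from 0.70 to 0.72, and it held in the other 19 fits without 1 library.

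For Zap70 and Lck, r was 0.57 (permutation p = 0.00534, adjusted 0.0401) and rho was 0.56 (permutation p = 0.00856, adjusted 0.0642), and r was 0.63 without the 2 libraries farthest from the median of Zap70. It was 0.78 in T cell deficient and 0.46 in T cell sufficient libraries, 0.49 in run 1 and 0.78 in run 2. The call held in 10 of the 23 fits without 1 library, those without T cell deficient 3, 5, 6 or 11 or T cell sufficient 2, 3, 5, 7, 10 or 11, and was lost in the rest (r from 0.50 to 0.69 over all 23). Without T cell sufficient libraries 9 to 11 it was 0.51 and did not pass (permutation, adjusted p = 0.151), while Lck and Cd5 stood at 0.80 (permutation, adjusted p = 0.0188). Zap70 and Cd5 had an r of 0.46 (rho 0.48, permutation p = 0.0296, adjusted 0.148), which was 0.83 in T cell deficient and 0.23 in T cell sufficient libraries. Whether the values differ between the groups was not tested.

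**Figure D3:**
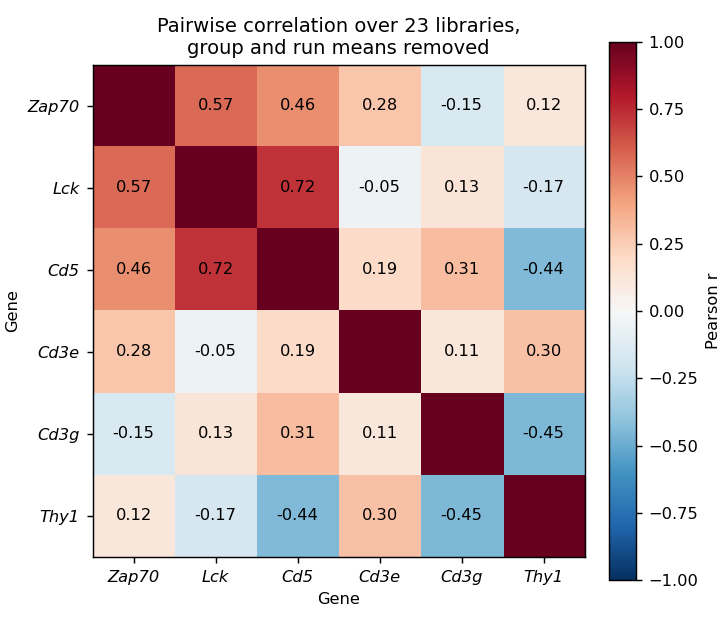
The grid gives Pearson's r for each pair of the 6 genes over 23 libraries after the means of group and run were removed, on a colour scale from -1 to 1. The cells of Zap70, Lck and Cd5 are the reddest, with 0.57, 0.46 and 0.72, and the cell of Cd3e and Cd3g reads 0.11.

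The chains of the receptor did not share this pattern at a level the test could detect. Cd3e and Cd3g, which are made into a single complex in T cells, had an r of 0.11 (rho 0.06, permutation p = 0.665, adjusted 0.713), with 0.39 in T cell deficient and 0.02 in T cell sufficient libraries. Cd3e with Lck had an r of -0.05 (rho -0.06, permutation p = 0.787, adjusted 0.787) and Cd3g with Lck one of 0.13 (rho 0.14, permutation p = 0.541, adjusted 0.676). Zap70 with Cd3e had an r of 0.28 (rho 0.30, permutation p = 0.287, adjusted 0.538) and with Cd3g one of -0.15 (rho -0.15, permutation p = 0.537, adjusted 0.676). Thy1 ran against Cd3g with an r of -0.45 (rho -0.47, permutation p = 0.0442, adjusted 0.166). Cd3e, Cd3g and Thy1 have medians near 1 CPM, and the part of counting error in their low r was not tested.

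**Figure D4:**
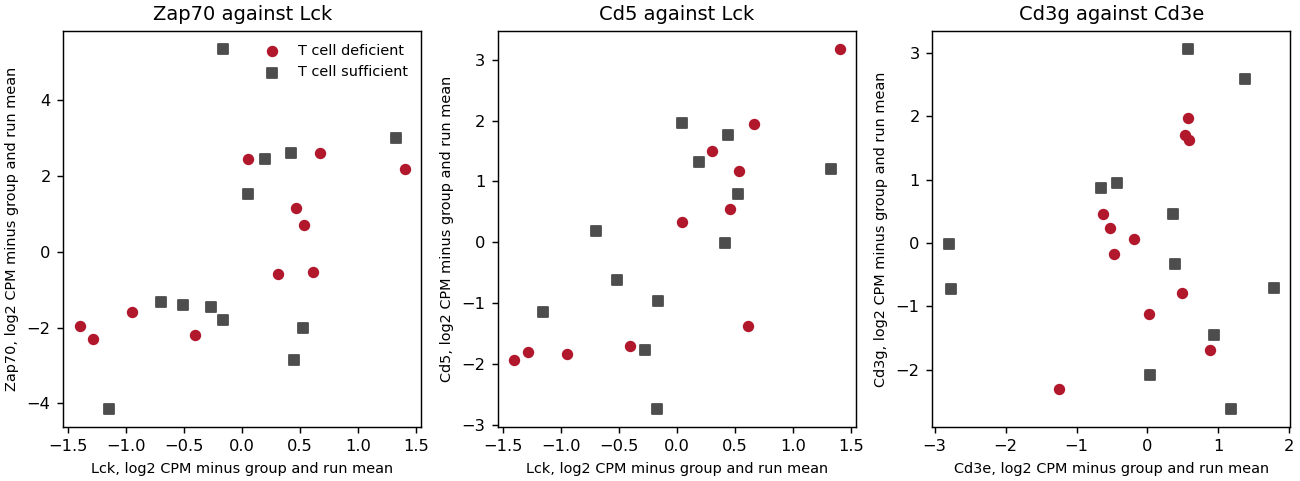
Each panel plots 2 genes against each other as log2 CPM minus the mean of group and run, with 1 point per library, circles for T cell deficient and squares for T cell sufficient. Zap70 and Cd5 each climb with Lck (r 0.57 and 0.72), and Cd3g against Cd3e forms a cloud (r 0.11). T cell sufficient library 5 is the highest point of the Zap70 panel.

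Other genes that mark T cells were read beside them from a list of 30 without the 6 genes, of which 12 had a row. In T cell deficient lymphomas 3 fell, 0 rose and 9 did not pass, with a median log2 fold change of -0.88, against -0.01 over all genes tested. The share called, 25.0%, was near the 22.2% of all genes. Of the 12, 1 (Ccr7) fell without T cell sufficient libraries 9 to 11, with a median of -0.91, where 653 of 11043 genes were called higher and 817 lower. The 3 were Ccr7, a lymph node homing receptor (8.38 CPM ± 6.89 in T cell deficient and 52.8 CPM ± 35.4 in T cell sufficient libraries, log2 fold change -2.61 ± 0.61 SE, edgeR adjusted p = 0.00495), Il2ra, a chain of the IL-2 receptor (-2.22 ± 0.76 SE, edgeR adjusted p = 0.0391), and Cd2, an adhesion receptor (-1.37 ± 0.49 SE, edgeR adjusted p = 0.0473). B cells can also express Ccr7, Il2ra and Cd2. The CPM summed over the list ran from 62.8 through a median of 158 to 461 in T cell deficient libraries, against 180 through a median of 423 to 936 in T cell sufficient libraries. Ctla4 is also on the list of B-1 genes.

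The coreceptors Cd4 and Cd8b1, the costimulatory receptor Cd28 and the T cell transcription factor Tcf7 were picked from the list after its values were seen, and Cd8b1 and Cd28 were high in some libraries. Cd4 ran from 0.0818 through a median of 1.74 to 7.44 CPM in T cell deficient and from 0.330 through a median of 1.20 to 8.58 CPM in T cell sufficient libraries (edgeR adjusted p = 0.809). Cd8b1 had a median of 0.496 and a highest value of 78.7 CPM in T cell deficient libraries, against 1.67 and 45.2 CPM in T cell sufficient libraries, and was at 0 in 1 T cell deficient and 2 T cell sufficient libraries (edgeR adjusted p = 0.915). It was over 8 CPM in 7 of the 23 libraries, T cell deficient 6 and 9 (38.6 and 78.7 CPM) and T cell sufficient 1, 2, 5, 7 and 10. Cd28 ran from 0 through a median of 0.818 to 3.40 CPM in T cell deficient and from 0.331 through a median of 1.34 to 66.2 CPM in T cell sufficient libraries (-2.59 ± 0.94 SE, edgeR adjusted p = 0.0523). Tcf7, a transcription factor of T cells, had medians of 0.520 CPM in T cell deficient and 1.18 CPM in T cell sufficient libraries, and was at 0 in 1 T cell deficient library (edgeR adjusted p = 0.0784). None of the 6 genes had a correlation with the summed list that passed over the 66 pairs of gene and list tested: r was -0.23 for Zap70, -0.27 for Lck, -0.26 for Cd5, -0.18 for Cd3e, 0.14 for Cd3g and -0.12 for Thy1 (permutation p from 0.193 to 0.592). Much of the sum was Cd2, with a median of 167 CPM in T cell sufficient libraries, where the sum had a median of 423 CPM. Since B cells can also express Cd2, these r cannot tell T cell RNA from B cell RNA. T cell deficient libraries 4 and 6, which led Zap70, held 2.12 and 5.77 CPM of Cd3e. Library 6 also had the highest T cell marker sum of the T cell deficient group, 461 CPM against a median of 158 CPM. Of that sum, 301 CPM was Cd2 (median 69.9 CPM) and 38.6 CPM was Cd8b1 (median 0.496 CPM). The same library lay below the group median for Cd4 (0.437 against 1.74 CPM), Cd28 (0 against 0.818 CPM) and Tcf7 (0.393 against 0.520 CPM). Library 4 had a sum of 135 CPM, with 72.2 CPM of Cd2 and 0.0867 CPM of Cd8b1. The part of T cell RNA in the values of the 6 genes was not tested.

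**Figure D5:**
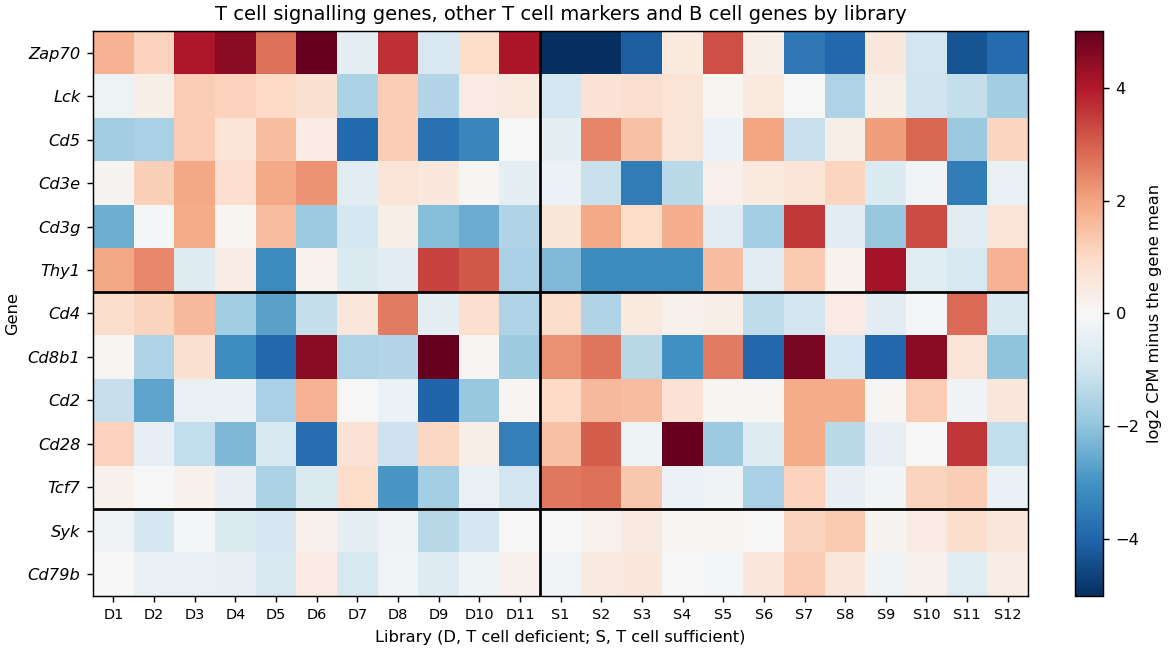
Rows are the 6 genes, 5 other T cell markers and the B cell genes Syk and Cd79b, columns are the 23 libraries (D, T cell deficient, S, T cell sufficient), and colour is log2 CPM minus the mean of the gene, held at -5 and 5. Zap70 lies above its mean in every T cell deficient column but 7 and 9, and in T cell sufficient columns 4, 5, 6 and 9. The red cells of Cd4, Cd8b1, Cd28 and Tcf7 also lie in columns of both groups.

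Of 66 pairs of gene and marker list, 1 passed by Pearson's r. Cd5 ran against the summed monocyte and macrophage markers, with an r of -0.68 (permutation p = 0.00014, adjusted 0.00924) and a rho of -0.68 (adjusted 0.00792), and an r of -0.58 without the 2 libraries farthest from the median of the list. That list summed to 381 through a median of 749 to 1203 CPM in T cell deficient libraries, against 703 through a median of 1263 to 4024 CPM in T cell sufficient libraries, and 15 of its 16 genes had a row, of which 4 fell (Ctsd, Mpeg1, Itgam and Lyz2) and 0 rose, 26.7% against 22.2% of all genes. The same count fell without T cell sufficient libraries 9 to 11. Cd5 had an r of -0.62 with the NK cell and cytotoxic markers (permutation p = 0.0021, adjusted 0.0693, rho -0.67, adjusted 0.0488). The part of either in the values of Cd5 was not tested.

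Of 42 genes that work beside these in T cell receptor signalling, 35 had a row, and in T cell deficient lymphomas 2 rose, 10 fell and 23 did not pass, with a median log2 fold change of -0.38. The share called was 34.3%, against 22.2% of all genes (10.6% higher and 11.7% lower). When T cell sufficient libraries 9 to 11 were left out 6 fell, and Lcp2, Plcg1, Grap and Dgkz did not pass (edgeR adjusted p from 0.0730 to 0.139). The 4 with the smallest p fell: Ptprc, the phosphatase CD45 (-0.79 ± 0.14 SE, edgeR adjusted p = 0.000869), Lime1, an adaptor of the membrane (-1.29 ± 0.33 SE, edgeR adjusted p = 0.00845), Ptpn6, the phosphatase SHP-1 (-0.70 ± 0.18 SE, edgeR adjusted p = 0.00901), and Dgka, a diacylglycerol kinase (-0.55 ± 0.14 SE, edgeR adjusted p = 0.00921). Lcp2, the adaptor SLP-76 that Zap70 phosphorylates, and Plcg1, the phospholipase it leads to, fell as well, named here for their place in the pathway after their values were seen. Lcp2 averaged 6.97 CPM ± 4.00 (SD, n = 11) in T cell deficient and 19.4 CPM ± 18.6 (SD, n = 12) in T cell sufficient libraries (-1.49 ± 0.49 SE, edgeR adjusted p = 0.0324), and Plcg1 averaged 15.0 CPM ± 7.599 in T cell deficient and 29.3 CPM ± 18.9 in T cell sufficient libraries (-1.05 ± 0.34 SE, edgeR adjusted p = 0.0289). The 2 that rose, likewise named after the fact, were the adaptor Grap (0.34 ± 0.11 SE, edgeR adjusted p = 0.0346) and the diacylglycerol kinase Dgkz (0.55 ± 0.19 SE, edgeR adjusted p = 0.0399). Many genes of this list are expressed in B cells as well.

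The B cell counterparts of the 6 genes were present throughout. All 13 listed genes of B cell receptor signalling had a row, and in T cell deficient lymphomas 6 fell, 0 rose and 7 did not pass, with a median log2 fold change of -0.47. The share that fell was 46.2%, against 11.7% of all genes, and 6 fell without T cell sufficient libraries 9 to 11. Besides Syk, those that fell included Prkcb, a protein kinase C (-0.64 ± 0.12 SE, edgeR adjusted p = 0.00101), and Lyn, the kinase that acts as Lck does (-0.64 ± 0.14 SE, edgeR adjusted p = 0.00341). Of 17 genes associated with B-1 cells or leukaemia, 15 had a row, and 4 fell, 0 rose and 11 did not pass, with a median of -0.49. This is 26.7% called, against 22.2% of all genes, and 4 fell without T cell sufficient libraries 9 to 11. The 4 were Myof, Fcrl5, Itgam and the transcription factor Bhlhe41, which averaged 37.4 CPM ± 37.8 (SD, n = 11) in T cell deficient and 270 CPM ± 92.0 (SD, n = 12) in T cell sufficient libraries (-2.92 ± 0.60 SE, edgeR adjusted p = 0.00212).

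A search over the genes tested left out 19 genes of the table whose ID and name differ. The genes whose residual log2 CPM followed each of the 6 most closely over the 23 libraries differed from gene to gene. They were Foxf2, Zkscan7 and Gm16973 for Zap70 (r 0.86, 0.84 and 0.82), Fam167a, Ift22 and Efnb1 for Lck (0.87, 0.82 and 0.82), and Ddx17, Stap1 and Zc3h7b for Cd5 (0.87, 0.84 and 0.83). For Cd3e they were Cd84, Pglyrp1 and Sptbn1 (0.82, 0.78 and 0.77), for Cd3g Tor1a, Spi1 and Surf1 (0.75 each), and for Thy1 Zfp839, Egln2 and A830010M20Rik (0.71, 0.71 and 0.69). None of the 18 is a T cell receptor chain or one of the listed T cell markers. Only 12 of the 30 listed markers had a row, and Cd3d had none, so few could appear and their absence shows little. As the highest of many values these r are descriptions.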

How the data were processed

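RNA-seq counts were available for 23 lymphoma libraries of 2 groups and 2 runs. The authors deposited raw counts per gene symbol, CPM (counts over the column total), and a comparison of T cell deficient over T cell sufficient lymphomas with log2 fold changes, p-values and their adjusted values. The package limma and the builds mm10 and GRCm38 are named, per the submitters' processing notes. The sources used here do not give the aligner, the counter or the strand setting. Each gene in the table has over 1 CPM in at least 7 libraries, so scarcer genes were not analysed here. T cell sufficient lymphoma 1 was sequenced in both runs to link them. The table does not say whether its column, the deepest, holds the run 1 library alone or both, and it was treated as a run 1 library. The column of T cell sufficient lymphoma 4 was matched by its number, since its suffix differs from the label.

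Counts were fitted with edgeR 4.0.16 (R 4.3.3, filterByExpr, TMM, robust quasi-likelihood, terms for run and group), with Benjamini-Hochberg adjustment over all genes tested and a threshold of 0.05. Correlations used log2 CPM with a prior count of 2, residuals from the means of group and run, and 100000 permutations within them (Python 3.11.15, numpy 2.4.6). Exact tests within a run enumerated 792 and 462 splits. The code was tested on simulated data. The genes, the 11 marker lists and the tests were chosen with earlier results of these data known. Named genes are the 6 members, for each the 3 genes with the highest r, and of each list up to 4 genes with the smallest p, with exceptions stated, and 1 gene that this rule takes is not reported here. Gene positions and exon lengths are from GENCODE M21. The RefSeq table held a start region for 5 of the 6 genes. No 2 libraries of a group differed by as little as sampling noise (chi-square per degree of freedom at least 31.0 over 121 pairs). Whether equal replicate numbers pair libraries across groups was not settled. The correlation of deviations from the group means was over 0.1 in 3 of 11 pairs, the highest being 0.233 for pair 7. Run means were not removed, and every pair but number 7 lay in opposite runs, so low values cannot show that pairing is absent. Alternatives were other scalings, no filter, DESeq2 1.42.0, limma-voom (limma 3.58.1), single runs, the replicate number as a block and libraries left out. Limits of detection cover counting error only, whereas the SD and SE values include the spread between libraries.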

Additional observations from a re-analysis of the deposited data

Results flagged for a closer look

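Within the 4 combinations of group and run, each of the 6 genes was tested for a single library far from the rest by Dixon's criterion, and 5 of 24 sets had one. Chance gives about 1 in 20 only where values have a normal spread. The criterion was applied to CPM without a log, and these can be skewed. Zap70 in T cell sufficient libraries, for example, had a mean of 16.3 and a median of 0.951 CPM. The 5 are therefore descriptions and are not set against that rate. Zap70 was at 129 CPM in T cell sufficient library 5, with the next library of its group and run at 19.3 CPM. Cd3g was at 22 CPM in T cell sufficient library 7 of run 1, with the next at 7 CPM. Cd3g was at 18.2 CPM in T cell sufficient library 10 of run 2, with the next at 2.92 CPM. Lck was at 391 CPM in T cell sufficient library 9, with the next at 161 CPM. Thy1 was at 17.5 CPM in the same library, with the next at 3.23 CPM. All 5 lay in the T cell sufficient group.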

How the results depend on the processing

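Over the alternatives run, the direction of each of the 6 genes was kept except for Lck in run 1 alone (-0.17), Thy1 in run 2 alone (-1.23), and Cd3g (0.42) and Thy1 (-0.14) in run 2 alone without T cell sufficient libraries 9 to 11, where the cause was not tested. RLE and upper quartile scaling, no filter, no run term, limma-voom, DESeq2 and Xist and Ddx3y as covariates left Zap70 called, at 3.40 to 5.08. The 1163 genes called higher and 1285 called lower became 0 and 0 in run 1 alone, 629 and 730 in run 2 alone, 653 and 817 without T cell sufficient libraries 9 to 11, and 549 and 503 in run 2 alone without them. The last 2 were chosen after seeing the data, and all 4 use fewer libraries. With the replicate number as a block, Zap70 stood at 4.56 (edgeR adjusted p = 0.0320), 892 genes were called higher and 940 lower, and no call among the 6 genes changed. The 2 correlated pairs became 1 by Spearman's rho, 1 without libraries 9 to 11, and 0 in T cell deficient libraries alone, T cell sufficient libraries alone, run 1 alone and run 2 alone, and ran from 0 to 3 when 1 library was left out. Leaving out 1 library gave log2 fold changes from 3.18 to 4.63 for Zap70, 0.55 to 0.90 for Lck, -1.89 to -1.11 for Cd5, 0.88 to 1.29 for Cd3e, -2.12 to -1.24 for Cd3g and 0.15 to 0.81 for Thy1, which was removed by the filter in 5 of the 23 fits. Depth limits Cd3e, Cd3g and Thy1, whose values near 1 CPM rest on few counts.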

Other observations

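Counts of markers of other cell types are read against the 22.2% of all genes called, 10.6% higher and 11.7% lower, and most rest on few genes. Of 19 NK cell and cytotoxic markers 7 had a row, and in T cell deficient lymphomas 1 rose and 2 fell. Klrb1c, an NK cell receptor, averaged 2.71 CPM ± 2.51 (SD, n = 11) in T cell deficient and 0.497 CPM ± 0.661 (SD, n = 12) in T cell sufficient libraries (log2 fold change 2.18 ± 0.63 SE, edgeR adjusted p = 0.0178), while the adaptors Tyrobp (-1.41 ± 0.31 SE, edgeR adjusted p = 0.00383) and Fcer1g (-1.91 ± 0.63 SE, edgeR adjusted p = 0.0341) fell. Of 15 B cell identity markers 1 rose and 4 fell with 10 not passing: Vpreb3 averaged 32.4 CPM ± 22.3 in T cell deficient and 17.6 CPM ± 10.8 in T cell sufficient libraries (1.05 ± 0.29 SE, edgeR adjusted p = 0.0135), and Cd22, an inhibitory receptor, 247 CPM ± 146 in T cell deficient and 773 CPM ± 493 in T cell sufficient libraries (-1.59 ± 0.50 SE, edgeR adjusted p = 0.0264). The 1 of 9 megakaryocyte markers with a row, the integrin Itgb3, rose (2.36 ± 0.57 SE, edgeR adjusted p = 0.00648). Of 13 stromal markers 6 had a row and 2 fell, Col1a1 and Kdr; of 10 erythroid markers 8 had a row and 1 rose, Tfrc; and of 9 plasma cell markers 7 had a row and 1 fell, Sdc1. Without T cell sufficient libraries 9 to 11, Klrb1c, Tyrobp, Vpreb3 and Itgb3 were still called, Col1a1 was removed by the filter, and Fcer1g, Cd22, Kdr, Tfrc and Sdc1 were not (edgeR adjusted p from 0.0761 to 0.378). The part of these cell types in the values of Zap70, Lck, Cd5, Cd3e, Cd3g and Thy1 was not tested.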
